A study of Mus musculus with 2 samples.

Results

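Oxidative phosphorylation genes were read across the cells of LPS-injected mouse retinas, and comprised 105 of the 32245 genes with a symbol of their own in the deposited matrices. They were chosen by symbol: the mitochondrially encoded mt-Nd, mt-Co, mt-Atp and mt-Cytb genes, the nuclear Ndufa, Ndufb, Ndufc, Ndufs, Ndufv, Uqcr, Cox4i, Cox5, Cox6, Cox7, Cox8 and Atp5 genes, and Sdha to Sdhd, each with at least 30 UMIs (unique molecular identifiers, counted transcripts) over both libraries. Symbols matched for 107 genes, of which Ndufb1-ps was dropped for the ending -ps, although it held 26402 UMIs, and Cox8c had too few UMIs. The lowest members inside the threshold were Cox8b with 49 UMIs, Cox7b2 with 51 and Cox6a2 with 96. Of the members, 84 were nuclear-encoded subunits (38 of complex I, 4 of complex II, 8 of complex III, 17 of complex IV and 17 of complex V) and 13 were encoded by the mitochondrial genome (7 of complex I, 1 of complex III, 3 of complex IV and 2 of complex V). The other 8, Ndufaf1 to Ndufaf8, share the prefix but are assembly factors of complex I and were counted apart. Complexes were assigned by symbol. Ndufa4, known as a subunit of complex IV, and its relative Ndufa4l2 are therefore in the complex I counts, sums and ratios below.

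Both groups carried floxed Atg5, a gene needed to form autophagosomes, and both received 0.5 µg LPS per eye in the vitreous. The control library came from Atg5fl/fl retinas and the knockout library from GLAST-CreER; Atg5fl/fl retinas of animals that also received 4-hydroxy-tamoxifen, in which Cre is driven in Müller glia. Each library pooled 6 retinas, so there was 1 sample per group, no test between groups was possible, and genotype, Cre and drug cannot be told apart. No retina without LPS was analysed here, and the sources used here name neither the sexes nor the time from injection to harvest. All intervals below are 95% intervals and cover counting error only.

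Oxidative phosphorylation passes electrons from NADH (complex I) and succinate (complex II) through complex III to oxygen at complex IV, and complex V makes ATP from the proton gradient that complexes I, III and IV build. Complex II is wholly nuclear-encoded, while the others join subunits from both genomes, so their assembly needs transcripts made in the nucleus and in the organelle. Photoreceptors and bipolar cells hold many mitochondria, and neutrophils are known to rely mostly on glycolysis.

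The nuclear-encoded members, assembly factors included, lay on 19 chromosomes, and 3 were on X. Promoters (250 bases before to 50 bases after the start, RefSeq, GRCm38.p6) were matched for 69 of the 84 nuclear-encoded subunits. Both strands were searched for 4 short motifs linked in general to the genes of respiration or to core promoters: GCGCATGCG, bound by NRF1, was in the promoters of 8 members (11.6%, against 2.61% of 17492 protein-coding genes), AAGATGGC, bound by YY1, in 10 (14.5% against 3.57%), CCGGAAG, bound by ETS factors such as GABPA, in 17 (24.6% against 12.9%), and TATAAA, the TATA box, in 8 (11.6% against 14.8%). No match of the NRF1, YY1 and ETS letters overlapped another. The 5 promoters that hold 2 of these 3 motifs are printed here because they show the letters side by side: NRF1 and ETS letters in Atp5k, Atp5l, Cox6a1 and Uqcr11, and ETS and YY1 letters in Atp5j. All 5 read from the minus strand, 5′ to 3′, with matches to any of the 4 motifs in capitals: Atp5k at chr5:108434350-108434649, Atp5l at chr9:44920693-44920992, Cox6a1 at chr5:115348909-115349208, Uqcr11 at chr10:80406772-80407071 and Atp5j at chr16:84834927-84835226.
Atp5k: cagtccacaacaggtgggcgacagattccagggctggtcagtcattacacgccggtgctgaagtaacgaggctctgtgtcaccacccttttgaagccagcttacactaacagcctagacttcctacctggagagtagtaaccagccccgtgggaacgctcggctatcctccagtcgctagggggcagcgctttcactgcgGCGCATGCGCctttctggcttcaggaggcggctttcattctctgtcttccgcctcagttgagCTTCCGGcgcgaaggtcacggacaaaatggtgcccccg
Atp5l: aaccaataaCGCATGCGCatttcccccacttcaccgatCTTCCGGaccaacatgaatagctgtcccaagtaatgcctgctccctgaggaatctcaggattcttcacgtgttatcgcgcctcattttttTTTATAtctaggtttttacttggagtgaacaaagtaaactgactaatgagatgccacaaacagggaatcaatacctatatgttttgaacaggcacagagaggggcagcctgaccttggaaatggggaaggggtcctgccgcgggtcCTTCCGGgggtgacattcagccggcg
Cox6a1: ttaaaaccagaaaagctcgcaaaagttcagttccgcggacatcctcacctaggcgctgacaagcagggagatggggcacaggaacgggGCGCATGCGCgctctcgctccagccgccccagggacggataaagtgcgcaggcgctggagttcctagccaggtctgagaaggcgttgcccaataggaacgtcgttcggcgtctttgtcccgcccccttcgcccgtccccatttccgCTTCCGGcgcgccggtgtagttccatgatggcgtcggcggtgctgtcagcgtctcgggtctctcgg
Uqcr11: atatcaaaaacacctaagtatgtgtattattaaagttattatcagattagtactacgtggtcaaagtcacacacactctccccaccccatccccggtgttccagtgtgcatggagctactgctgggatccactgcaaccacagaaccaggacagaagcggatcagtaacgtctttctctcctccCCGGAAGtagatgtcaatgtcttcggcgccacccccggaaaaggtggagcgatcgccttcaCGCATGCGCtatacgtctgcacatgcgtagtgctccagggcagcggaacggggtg
Atp5j: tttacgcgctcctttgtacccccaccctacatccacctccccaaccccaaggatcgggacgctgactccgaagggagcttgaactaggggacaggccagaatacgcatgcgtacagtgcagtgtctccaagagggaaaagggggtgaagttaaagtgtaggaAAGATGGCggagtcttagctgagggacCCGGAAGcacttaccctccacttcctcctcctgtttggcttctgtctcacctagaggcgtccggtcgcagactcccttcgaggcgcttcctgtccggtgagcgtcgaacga
A match describes letters only, and says nothing of whether a factor binds there. In Müller glia-like cells these 5 genes, small subunits of complexes V, IV and III, had knockout over control ratios from 0.984 (Uqcr11) to 1.20 (Cox6a1), and in rod-like cells from 1.71 (Cox6a1) to 2.00 (Atp5j).

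Depth and quality differed between the libraries. The control library held 8690 barcodes and 43669961 UMIs, and the knockout library 5229 and 50676223. After the study's filter (at least 500 genes and under 25% mitochondrial UMIs) 8274 and 4662 cells stayed, with median depths of 1396 and 6808 UMIs, and 15 barcodes were shared. Cell types were rebuilt here from clusters and marker genes, so names carry the suffix -like, and 12 named classes had at least 50 cells in each library. Rod-like cells were shallow (medians of 1118 and 1073 UMIs), whereas Müller glia-like cells were deep (14446 and 20174). The targeted gene Atg5 stood at 20.5 CPM (17.2 to 24.3) in control and 18.6 CPM (16.2 to 21.2) in knockout Müller glia-like cells. A 3' tag need not lie in the deleted part, so this value checks neither the deletion nor the labels.

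Levels are given as CPM, each gene's or group's UMIs per 1000000 UMIs of that class and library. Because 3' libraries count an end tag of each transcript, CPM was not divided by gene length. The mitochondrial values are truncated by the filter on mitochondrial UMIs. Many nuclear members have processed pseudogenes that can take part of their reads, and of the 92 nuclear-encoded members 30 overlap an exon of another gene on the other strand and 5 on the same strand, so single values of these genes are uncertain.

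Across cell classes the nuclear-encoded transcripts of respiration were highest in cones, rod bipolar cells and glycinergic amacrine cells, and lowest in neutrophils. The 84 nuclear-encoded subunits summed to 23635 CPM in control and 26557 CPM in knockout rod bipolar-like cells. Cone-like cells held 24089 and 26020 CPM, and glycinergic amacrine-like cells 22757 and 25116 CPM. These 3 classes were above all other classes in both libraries, and their own order differed between the libraries. Neutrophil-like cells stood at 5723 and 5436 CPM, the lowest of the 12 classes in both libraries, and the highest class (rod bipolar-like, mean of both libraries) exceeded them 4.50-fold. Müller glia-like cells, with 16292 and 17501 CPM, lay in the middle, next to GABAergic amacrine-like cells (17573 and 18824 CPM) and monocyte and macrophage-like cells (17484 and 19058 CPM). Endothelial-like cells had 14980 and 13780 CPM. Rod-like cells had 8597 and 16517 CPM, above only neutrophil-like cells in control and above only neutrophil-like and endothelial-like cells in knockout.

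The 13 mitochondrially encoded subunits ordered the classes much as the nuclear ones did, with photoreceptors and bipolar cells further up in pooled UMIs. Rod-like cells had 37360 CPM in control and 57068 CPM in knockout cells, but the median control rod-like cell had 13691 CPM. Cone-like cells held 67035 CPM in control and 75405 CPM in knockout cells, and rod bipolar-like cells 73240 and 68752 CPM. Neutrophil-like cells were again lowest, at 11975 and 13429 CPM, 5.61-fold below cone-like cells. Müller glia-like cells had 29738 and 30108 CPM. Horizontal-like cells, with 31 and 39 cells too few for the 12 classes, had 72534 and 85095 CPM. Within 1 library, classes share the free RNA of that library.

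**Figure D1:**
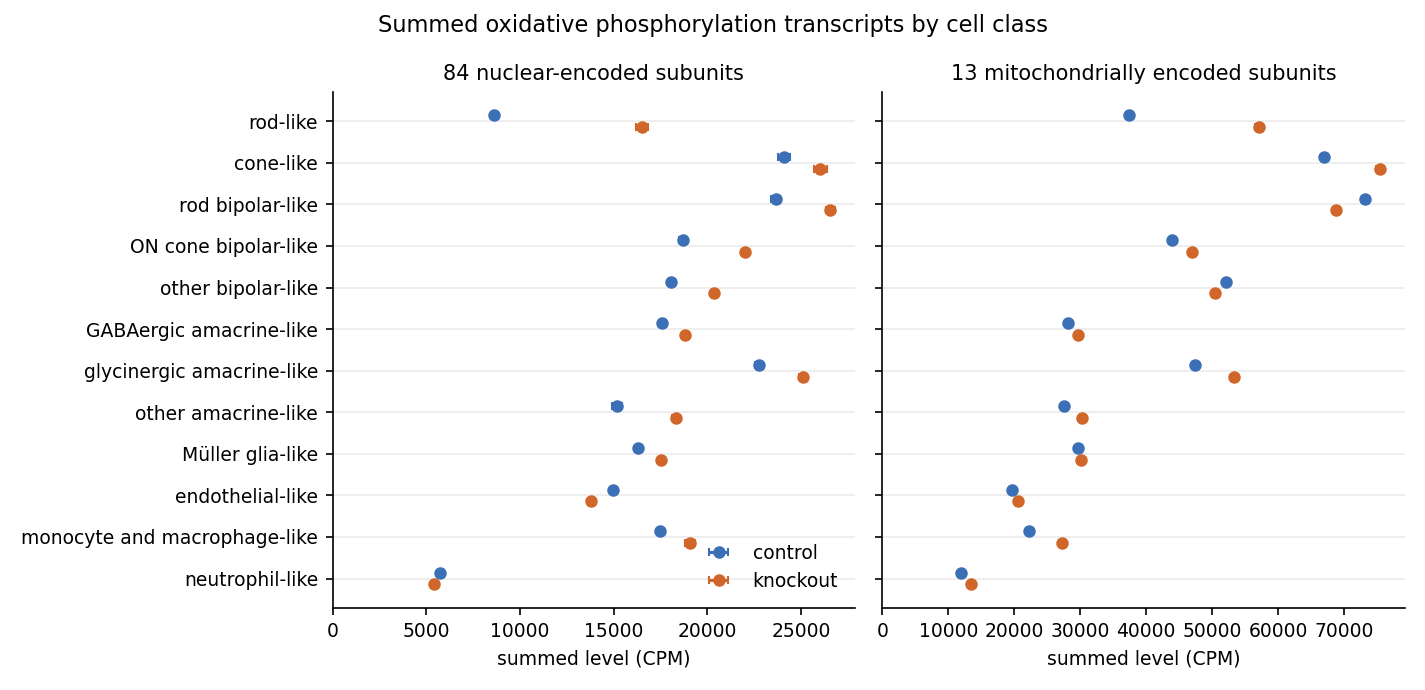
Summed level (CPM, linear axis from 0) of the 84 nuclear-encoded subunits (left) and the 13 mitochondrially encoded subunits (right) in 12 cell classes, with control in blue, knockout in orange and exact Poisson 95% intervals, mostly narrower than the points. Neutrophil-like cells lie lowest in both panels, and rod-like cells show the widest gap between the libraries, 8597 against 16517 CPM for the nuclear-encoded subunits.

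The balance between the genomes also differed between classes. In the control library, mitochondrially encoded UMIs numbered 4.35 per nuclear-encoded UMI in rod-like cells, 3.10 in rod bipolar-like, 2.78 in cone-like, 1.83 in Müller glia-like and 1.28 in monocyte and macrophage-like cells. The knockout library gave 3.46, 2.59, 2.90, 1.72 and 1.43. Complex IV, the oxygen-consuming oxidase, had the most mitochondrial UMIs per nuclear one in rod-like cells, at 9.29 in control and 6.44 in knockout cells, against 3.03 and 2.61 in Müller glia-like cells. All these ratios pool the UMIs of a class. The median control rod-like cell had 13691 CPM of mitochondrially encoded subunits (upper quartile 51182) and 7874 CPM of nuclear-encoded ones. Control medians were 72385 and 22800 CPM in rod bipolar-like and 64041 and 22830 CPM in cone-like cells. Müller glia-like cells had 28238 and 15641 CPM. The first place of control rod-like cells in the summed ratio thus held for pooled UMIs and not for these medians.

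Single subunits followed the class order with different widths. Of the 84 nuclear-encoded subunits, 35 had their highest class in glycinergic amacrine-like cells (25 of them in both libraries) and 24 in cone-like cells (21 in both), and 74 had their lowest in neutrophil-like cells (67 in both). For the 66 with a mean over classes of at least 100 CPM, the median fold from the lowest to the highest class was 5.75 (with 5 CPM added to both), against 11.7 for all 2161 genes at that level. By complex, the median fold was 6.55 for I, 5.31 for III, 3.80 for IV and 5.74 for V. Complex II, the 4 succinate dehydrogenase subunits, had a sum 3.74-fold higher in glycinergic amacrine-like (384 CPM in control and 453 CPM in knockout cells) than in neutrophil-like cells (116 and 108 CPM).

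Among the nuclear-encoded subunits with that mean of at least 100 CPM, the narrowest was Ndufa3, an accessory subunit of complex I. It ranged 1.97-fold over classes, from 104 CPM in neutrophil-like to 211 CPM in Müller glia-like cells (means of both libraries). Its highest and lowest classes were Müller glia-like and ON cone bipolar-like in control, and rod-like and endothelial-like in knockout. Atp5l, a membrane subunit of complex V, ranged 2.21-fold, and Ndufa7, Ndufb7 and Cox6b1 ranged 2.62-fold, 2.70-fold and 2.80-fold. Cox6b1, a subunit of complex IV facing the intermembrane space, was lowest in rod-like cells in the control library only, with 106 CPM beside 177 CPM in neutrophil-like cells. In the knockout library neutrophil-like cells were lowest, with 183 CPM beside 225 CPM in rod-like cells.

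Among the widest members, 3 were markedly uneven between neurons. Ndufaf5 (chr2:140170649-140203689, plus strand), a methyltransferase that helps to assemble complex I, had 418 CPM in control and 618 CPM in knockout cone-like cells. In rod-like cells it had 90.0 and 134 CPM, and in monocyte and macrophage-like cells 8.31 and 6.92 CPM. Cone-like and rod-like cells stood above the other 10 classes in both libraries, among which the highest value was 43.0 CPM. Atp5mpl (chr12:111961375-111966977, minus strand), a small proteolipid of complex V, stood out in rod bipolar-like cells with 2220 CPM in control and 2939 CPM in knockout cells. ON cone bipolar-like cells followed with 609 and 1063 CPM, other bipolar-like cells had 426 and 601 CPM, and neutrophil-like cells 117 and 114 CPM. Ndufa4, named for complex I but known as a subunit of complex IV, was likewise highest in rod bipolar-like (1339 and 1306 CPM) and cone-like cells (1203 and 1281 CPM), with 378 and 365 CPM in Müller glia-like cells.

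Other wide members were lowest in neutrophil-like cells and peaked in different neurons. Ndufc2, a complex I subunit, had 414 and 435 CPM in glycinergic amacrine-like and 22 and 18.4 CPM in neutrophil-like cells. Its partner Ndufc1 had 368 and 399 against 30.6 and 25.3 CPM. Ndufb11 peaked in cone-like cells, at 362 and 445 CPM against 25.3 and 32.2 CPM, and Ndufa5 in rod bipolar-like cells, at 373 and 390 CPM against 28.5 and 20.7 CPM. For all 4 the same pair of classes lay far apart in both libraries.

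**Figure D2:**
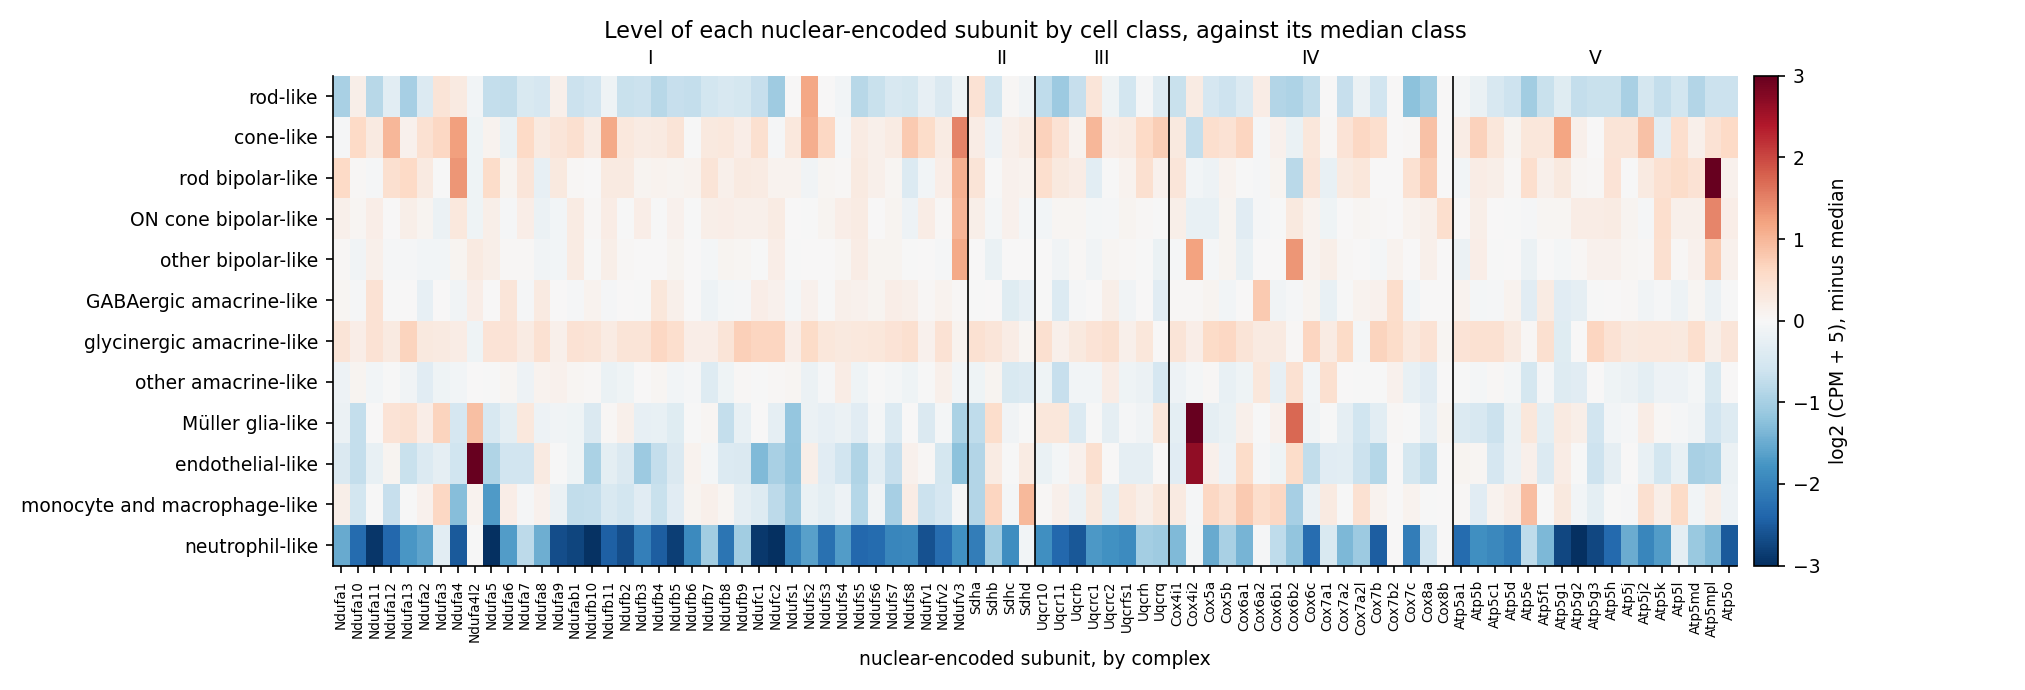
Level of each of the 84 nuclear-encoded subunits in 12 cell classes (mean of both libraries, log2 of CPM + 5 minus the subunit's median over classes), ordered by complex. The neutrophil-like row is low for most subunits, Atp5mpl is high in the bipolar-like rows, and Cox4i2 and Ndufa4l2 are high in Müller glia-like and endothelial-like rows.

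Subunits with tissue-specific copies were read as shares of their family's UMIs. Cox4i2 (chr2:152754173-152765037, plus strand) is the alternative copy of the regulatory subunit Cox4i1 of complex IV, known from lung and from cells that respond to low oxygen. In Müller glia-like cells it made up 27.5% (26.1 to 28.9, exact binomial) of Cox4i UMIs in the control, 1108 of 4029, and 22.9% (21.9 to 23.8), 1724 of 7541, in the knockout library. Endothelial-like cells had 9.45% and 9.33%, other bipolar-like cells 2.55% and 2.32%, and no other class over 2.22%. Cone-like cells had 0 of 629 and 0 of 584, which allows shares of up to 0.477% and 0.514%. Free RNA can give UMIs in any class, and its part in these shares was not tested. The endothelial-like class also held pericyte markers, and the part of pericytes in its Cox4i2 share was not tested.

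Ndufa4l2 (chr10:127514967-127517154, plus strand), the low-oxygen-induced relative of Ndufa4 that is also known from pericytes, was a feature of the endothelial-like class, at 66.0 CPM in control and 65.8 CPM in knockout cells. It was 15.2% (12.8 to 17.9) and 16.8% (14.3 to 19.5) of the UMIs of the pair there, against 0.877% and 1.93% in Müller glia-like cells. That class also held pericyte markers, 8 of 8 detected with a summed level of 2625 and 2165 CPM, and their part in the value was not tested. Exons of Ndufa4l2 overlap Shmt2 on the other strand.

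Cox6b2 (chr7:4751792-4753094, minus strand), the copy of Cox6b1 known from testis, made up 10.8% (9.55 to 12.1) and 11.4% (10.5 to 12.3) of the pair's UMIs in Müller glia-like cells. Other bipolar-like cells had 8.79% and 9.07%, whereas monocyte and macrophage-like cells had 0.394% and 0.511%. Cox6a2, the heart and muscle copy of Cox6a1, was seen mainly in GABAergic amacrine-like cells, where it was 2.23% (18 UMIs) and 2.84% (38 UMIs) of the pair. Cox7b2 reached 14 and 15 UMIs there and Cox8b 6 and 4 UMIs in ON cone bipolar-like cells, too few to compare. Cox7a1, the heart and muscle copy of Cox7a2, stayed at or below 2.10% of its family's UMIs in every class of both libraries.

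The 3 genes for subunit c of the ATP synthase rotor encode the same mature protein, and their use differed between classes alike in both libraries. Atp5g1 made up 44.6% (41.6 to 47.7) of their UMIs in control and 45.8% (42.4 to 49.2) in knockout cone-like cells, but 18.8% and 18.5% in glycinergic amacrine-like cells. Atp5g3 took the opposite place, with 49.4% and 49.2% in glycinergic amacrine-like and 24.8% and 23.5% in Müller glia-like cells. Atp5g2 lay between 24.8% and 42.3% over all classes and libraries.

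**Figure D3:**
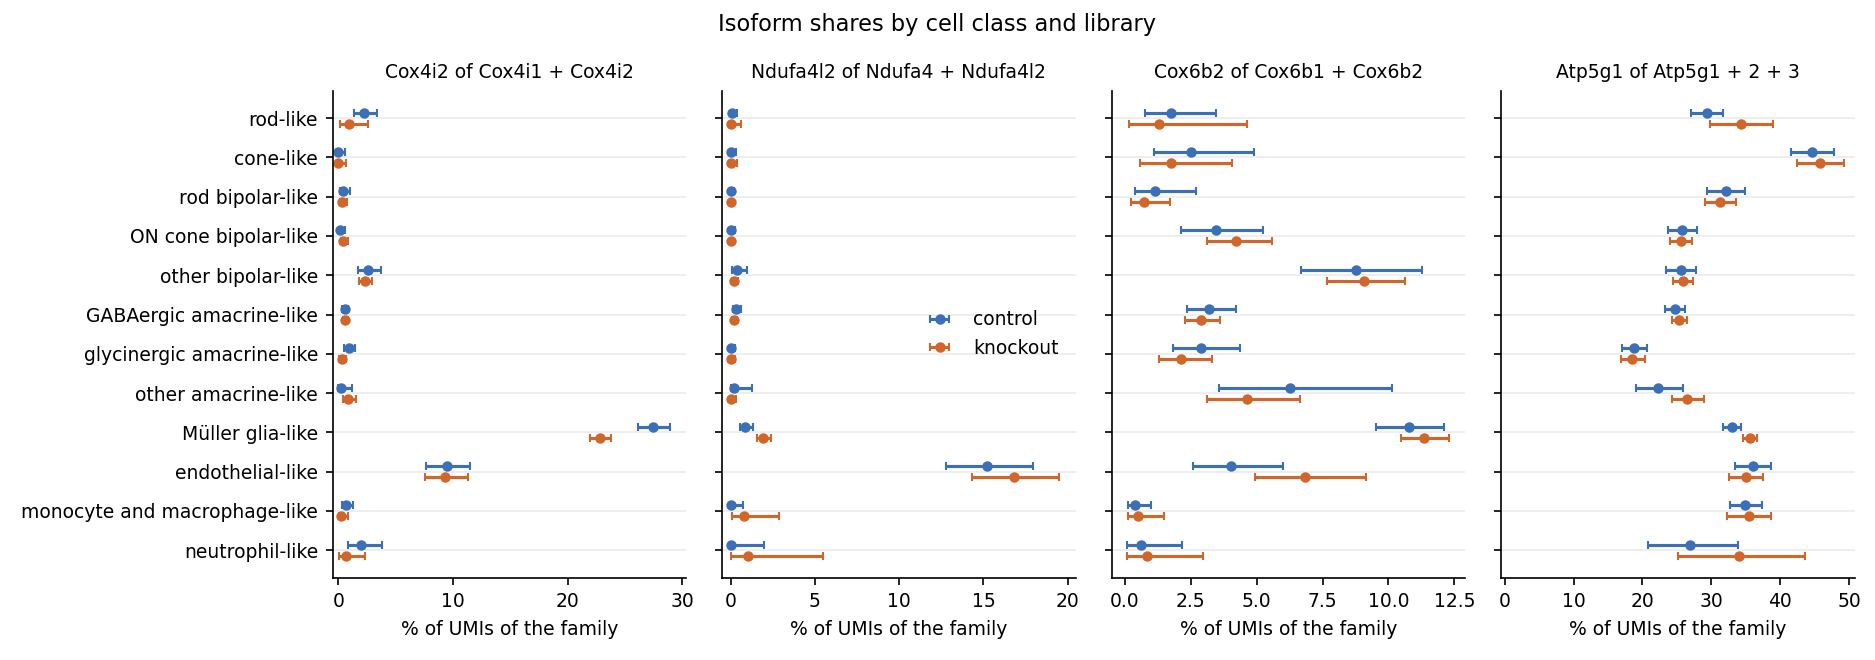
Share of a family's UMIs (percent) taken by Cox4i2, Ndufa4l2, Cox6b2 and Atp5g1 in 12 cell classes, with control in blue, knockout in orange and exact binomial 95% intervals. Cox4i2 is far to the right in Müller glia-like cells (27.5% and 22.9%), Ndufa4l2 in endothelial-like cells (15.2% and 16.8%) and Atp5g1 in cone-like cells (44.6% and 45.8%).

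The main comparison of the study is that of Müller glia between the control and Atg5 knockout libraries, and there the oxidative phosphorylation transcripts were close between the libraries. The 417 control and 589 knockout cells had 16292 and 17501 CPM of nuclear-encoded subunits, a knockout over control ratio of 1.07 (1.07 to 1.08), and 29738 and 30108 CPM of mitochondrially encoded ones, a ratio of 1.01 (1.01 to 1.02). A gene was called where its ratio was at least 1.5-fold in either direction and the class held at least 100 of its UMIs when both libraries were added. Of the 80 nuclear-encoded subunits with enough UMIs, 1 was higher and 0 lower, where 3.75% of all 10652 such genes were higher and 16.7% lower. None of the 13 mitochondrially encoded subunits and 1 of the 8 assembly factors (lower) passed. The median ratio was 1.06 over nuclear-encoded subunits, 0.986 over mitochondrially encoded ones and 0.902 over all genes tested.

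The 2 libraries drew unequally on the Müller subclusters. Of 5 subclusters, the first held 43 control and 329 knockout cells and the third 160 and 15. Depth differed between them: median UMIs in control and knockout cells were 20070 and 20137 in the first and 12209 and 2160 in the third. The fourth had 1378.5 and 2834 UMIs, with median mitochondrial shares of 6.11% and 3.91%. Whether the subclusters are cell states or follow depth and quality was not tested. Within subclusters the nuclear ratio was 1.10, 0.960, 0.907, 0.937 and 1.11, and the mitochondrial ratio 1.19, 0.967, 0.873, 0.745 and 1.06, so neither sum kept a direction across them. Markers of other cells moved as well: rod markers (12 of 12 detected) summed to 2236 CPM in control and 764 CPM in knockout Müller glia-like cells, neutrophil markers (10 and 8 of 10) to 266 and 81.2 CPM, and erythroid markers (4 and 6 of 6) to 6.8 and 1384 CPM. Müller markers themselves (12 of 12) stood at 14984 and 11794 CPM. The part of these RNAs in the ratios was not tested.

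A cluster that scored closest to Müller glia was left out of the class by a threshold set after the data were seen, at least 5 CPM of the Müller potassium channel Kcnj10. It held 58 control cells (0.701% of all) and 47 knockout cells (1.01%), with Kcnj10 at 0 and 1.16 CPM against 72.3 and 53.2 CPM in Müller glia-like cells, and the secreted BMP inhibitor Grem1 at 1627 and 1620 CPM against 20.6 and 5.65 CPM. It was rich in mitochondrial messages, with 72427 and 78203 CPM of the 13 subunits. With it added, the mitochondrial ratio of the Müller class was 0.823 in place of 1.01, and the nuclear ratio 1.04 in place of 1.07.

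By complex, the nuclear sums of complexes I, III, IV and V in Müller glia-like cells lay slightly above 1, while the mitochondrial sum was above 1 for complex I and below 1 for the others. Complex I had 5778 CPM of nuclear UMIs in control and 6149 CPM in knockout cells, a ratio of 1.06 (1.05 to 1.08). Its mitochondrially encoded subunits, the proton-pumping core, had 8656 and 9898 CPM, a ratio of 1.14 (1.13 to 1.15). The nuclear part of complex IV was at 4060 and 4472 CPM (1.10, 1.09 to 1.12) and its mitochondrial part, the catalytic core, at 12315 and 11678 CPM (0.948, 0.940 to 0.957). Complexes III and V had nuclear ratios of 1.08 and 1.07 and mitochondrial ratios of 0.986 and 0.968. Complex II stood at 294 and 280 CPM, a ratio of 0.954 (0.901 to 1.01), the only nuclear sum below 1.

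Among members counted under complex I by symbol, the widest ratio upward was that of Ndufa4l2. It had 3.34 CPM in the control (22 UMIs) and 7.17 CPM in the knockout library (85 UMIs), a ratio of 2.15 (1.33 to 3.61). These UMIs came from 6 control and 33 knockout cells, and a single control cell held 11 of them. Without the cell of each library with most UMIs the ratio was 3.85 (2.04 to 8.04). By subcluster the control and knockout UMIs were 2 and 20, 3 and 57, 17 and 0, 0 and 8, and 0 and 0. None of these held the minimum of 100 UMIs, nor did cells thinned to 1000 UMIs (2 and 5). At a minimum of 300 UMIs Ndufa4l2 was not tested. Pericyte markers in the cells with a Ndufa4l2 UMI summed to 40.6 CPM in control and 244 CPM in knockout cells, against 117 and 67.4 CPM in the other Müller glia-like cells, and their part was not tested. Ndufaf5 was the lowest member of all, with 24.0 CPM in control and 15.5 CPM in knockout cells, a ratio of 0.647 (0.521 to 0.806), from 158 UMIs in 88 cells and 184 UMIs in 112 cells. The call was lost with each cell named singly by its own markers (0.912), with free RNA taken away as 5% of the UMIs of a class in the proportions of barcodes under 500 genes (0.696), without the 5 deepest cells (0.676), with the trimmed-mean (TMM) scaling of edgeR (0.744) and with the left-out cluster added (0.791). The Ndufaf5 ratio in the 5 subclusters was 0.897, 0.781, 1.498, 0.692 and 1.499, none past the fold. Only the fifth held at least 100 UMIs, 76 in control and 62 in knockout cells. Ndufaf5 stood at 90.0 and 134 CPM in rod-like cells, whose markers were at a lower level in knockout than in control Müller glia-like cells, and the part of rod RNA was not tested.

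The other subunits of Müller glia-like cells stayed within 1.5-fold. In complex II, Sdhb, the iron-sulfur subunit, had 101 and 105 CPM (ratio 1.04) and Sdha, the flavoprotein that oxidises succinate, 94.7 and 84.2 CPM (0.889). The membrane anchors Sdhc and Sdhd had ratios of 0.924 and 0.935. In complex III the ratios spanned from Uqcrc2, a core subunit, with 92.9 and 87.1 CPM (0.938), to Uqcr10, with 257 and 291 CPM (1.13). Uqcrq was its most abundant nuclear subunit, at 366 and 410 CPM.

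In complex IV the lowest ratio was that of Cox4i2, 168 CPM in control and 146 CPM in knockout cells (0.865, 0.802 to 0.934), and the highest that of Cox6a1, 151 and 182 CPM (1.20, 1.12 to 1.30). In complex V, Atp5md, a small membrane subunit that helps ATP synthase dimers to form, had 297 and 374 CPM (1.26), and Atp5e, the epsilon subunit of the central stalk, 460 and 465 CPM (1.01). All these differences were smaller than the fold used to call a gene.

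**Figure D4:**
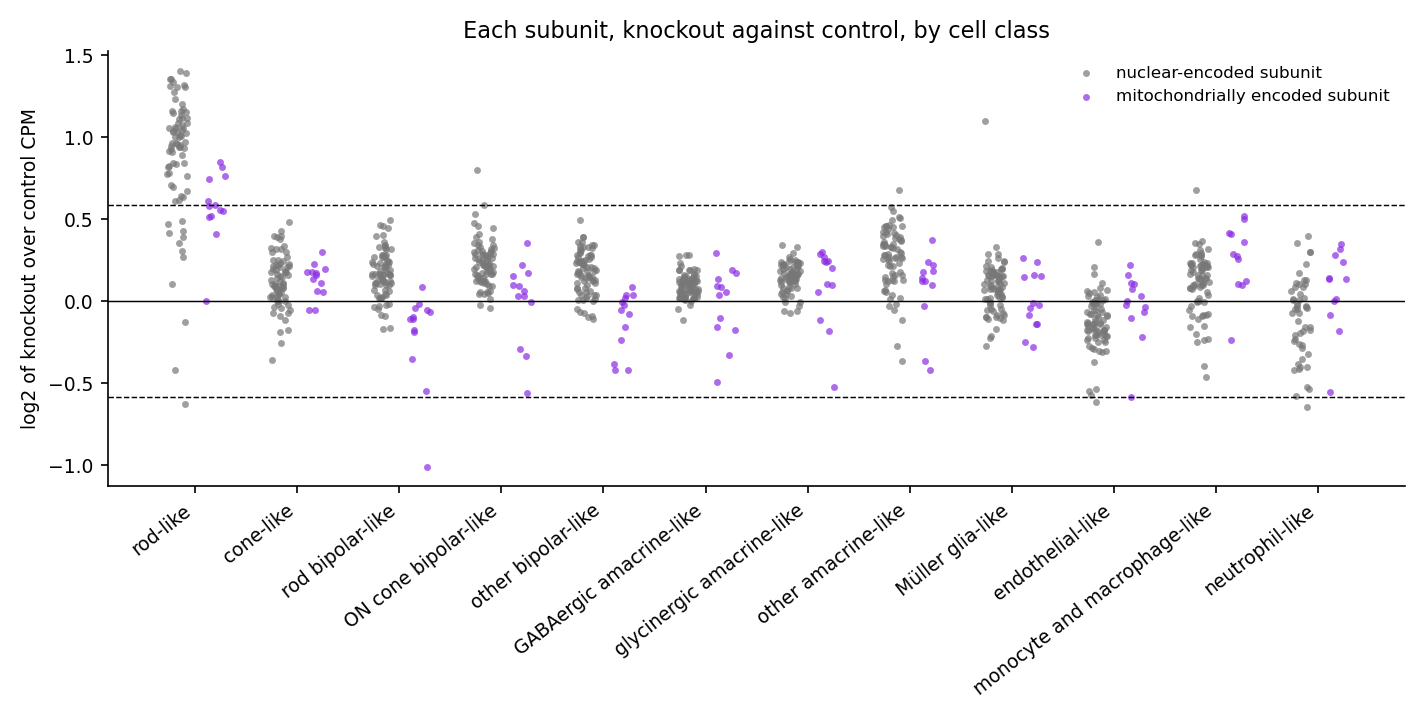
Log2 of the knockout over control ratio for each nuclear-encoded (grey) and mitochondrially encoded (purple) subunit with at least 100 UMIs in the class, with dashed lines at 1.5-fold in each direction. In rod-like cells most points lie above the upper line, and in the other classes most lie between the lines.

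The mitochondrial genome is transcribed as long strands that are cut into messages, so its members can be read as a set. In Müller glia-like cells all 3 of the abundant complex I messages mt-Nd1 (2393 and 2657 CPM, ratio 1.11), mt-Nd2 (2791 and 3346 CPM, 1.20) and mt-Nd4 (1724 and 1928 CPM, 1.12) had intervals above 1, as did mt-Nd3 (1062 and 1255 CPM, 1.18) and mt-Nd5 (443 and 494 CPM, 1.11). The oxidase messages were level or lower: mt-Co1 4044 and 4016 CPM (0.993), mt-Co2 3929 and 3566 CPM (0.908) and mt-Co3 4342 and 4096 CPM (0.943). Cytochrome b of complex III, mt-Cytb, had 2698 and 2659 CPM (0.986), and the ATP synthase subunit mt-Atp6, the most abundant member, 5950 and 5773 CPM (0.970). Ratios of members of 1 genome thus ran from 0.825 (mt-Nd6, 27.3 and 22.5 CPM) to 1.20.

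Short genes that overlap a neighbour had ratios apart from its own. The mt-Nd4l gene overlaps mt-Nd4, and mt-Atp8 overlaps mt-Atp6, so reads at the shared bases cannot be assigned with certainty. Whether a differing ratio lies in the amount of RNA or in where its reads fall was not tested. UMIs of mt-Nd4l were 9.17% to 15.5% of those of mt-Nd4 over the 12 control classes and 6.55% to 11.8% over the knockout classes, and its ratio was below that of mt-Nd4 in 12 of 12 classes. For mt-Atp8 and mt-Atp6 the shares were 1.37% to 2.09% and 0.949% to 1.77%, with the lower ratio in mt-Atp8 also in 12 of 12. These classes come from the same 2 libraries, so this is a single comparison seen in 12 cell types. The gene mt-Nd6, the only member on the other strand of the mitochondrial genome, had a lower ratio than mt-Nd5, which it overlaps, in 7 of 12 classes.

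**Figure D5:**
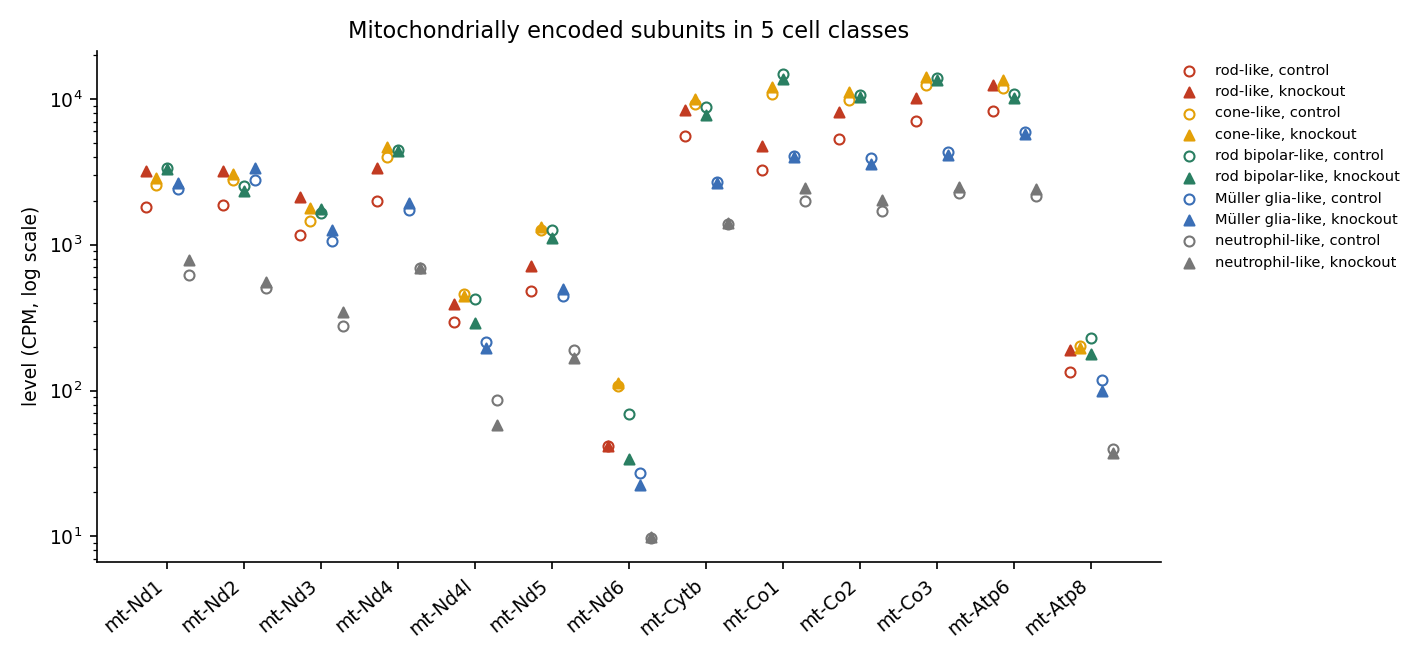
Level (CPM, log axis) of the 13 mitochondrially encoded subunits in 5 cell classes, with open circles for control and filled triangles for knockout. Rod bipolar-like and cone-like cells lie highest for most genes, neutrophil-like cells lie low, and the gap between circle and triangle in rod-like cells is widest of the 5 classes for most genes, mt-Nd4l and mt-Nd6 being exceptions.

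Rod-like cells were the class in which the libraries differed most, and most nuclear-encoded subunits rose. The 3207 control and 375 knockout cells had 8597 and 16517 CPM of nuclear-encoded subunits, a ratio of 1.92 (1.88 to 1.96), and 37360 and 57068 CPM of mitochondrially encoded ones, a ratio of 1.53 (1.51 to 1.54). Of 77 nuclear-encoded subunits with enough UMIs, 66 were past 1.5-fold, 65 higher and 1 lower, against 30% of all genes in either direction, and their median ratio was 1.96 against 0.902 over all genes. Of the 13 mitochondrially encoded subunits, 6 were higher, and of 6 assembly factors 2 were, where 824 of all 7357 genes tested were higher and 1381 lower. By complex, the nuclear sums had ratios of 2.12 for IV, 1.94 for I, 1.90 for V, 1.77 for III and 1.21 (1.06 to 1.38) for II.

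Ndufa4 led the rod-like class, with 349 CPM in control and 926 CPM in knockout cells, a ratio of 2.65 (2.41 to 2.92). Cox7a2l, which joins complexes III and IV into supercomplexes, had a ratio of 2.63. The 12 tested subunits that were not higher by 1.5-fold belonged to complexes I, II, III and V, while all 11 tested nuclear subunits of complex IV were higher. They were Ndufs1 (101 and 65.7 CPM, ratio 0.647, 0.463 to 0.884), Ndufs4 (0.747), Sdhb (0.915), Sdha (1.08), Uqcrc2 (1.20), Ndufa10 (1.24), Ndufs3 (1.28), Uqcrc1 (1.31), Atp5a1 (1.33), Ndufv1 (1.35), Uqcrfs1 (1.39) and Atp5g3 (1.41). Ndufs1, the largest subunit of complex I and its entry path for electrons beside Ndufv1, was the only subunit lower by 1.5-fold.

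In rod-like cells the ratio over all genes tested was lower for genes of longer genomic span, while the medians of the members differed little by span. The 65 subunits higher by 1.5-fold had a median span of 7.19 kb (1.21 to 27.4) and the other 12 one of 15.5 kb (2.88 to 100.5). Among all genes tested in rod-like cells, the median ratio was 1.32 for those under 10 kb (1370 genes, 39.1% higher by 1.5-fold), 0.945 from 10 to 50 kb (3443 genes, 7.99%) and 0.757 above 50 kb (2506 genes, 0.998%). The members had medians of 2.01 under 10 kb (53 members, 49 higher) and 1.92 from 10 to 50 kb (23 members, 16 higher), and the single longer member was Ndufs4.

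Other measures of the rod-like cells moved in the same comparison. Ribosomal protein genes made up 1.83% of UMIs in control and 4.36% in knockout cells, the nuclear-retained RNA Malat1 2.45% and 3.06%, rhodopsin 0.572% and 0.909%, and haemoglobin 0.00380% and 1.65%. The median cell had 1.37% and 4.10% mitochondrial UMIs. Rod markers (12 of 12 detected) summed to 25398 and 31407 CPM, and neutrophil markers (10 and 8 of 10) to 762 and 427 CPM. Their part in the rod result was not tested, and neither was that of the span.

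The unnamed cluster beside the rods, cluster 1, carried rod genes together with lens crystallins and gave like values. Its 2348 control and 564 knockout cells had 10006 and 17528 CPM of nuclear-encoded subunits, a ratio of 1.75 (1.72 to 1.78). Of 77 subunits with enough UMIs, 61 were past 1.5-fold, all of them higher, against 23.9% of genes in either direction, and 9 of 13 mitochondrially encoded subunits were higher.

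In the other neurons the nuclear sums were slightly higher in the knockout library, and few members passed the fold. Cone-like cells had a nuclear ratio of 1.08 (1.06 to 1.10) and 0 of 76 subunits past 1.5-fold, against 5.01% of genes. Their highest member was the assembly factor Ndufaf5, with 418 and 618 CPM (1.48, 1.29 to 1.69), and their lowest Ndufv1, with 138 and 107 CPM (0.779). The difference between the ratios of cones and rods was not tested.

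Rod bipolar-like cells had a nuclear ratio of 1.12 (1.11 to 1.14) and 0 of 77 subunits past the fold, where 4.55% of genes were. Their mitochondrial sum went the other way, at 0.939 (0.931 to 0.946), or 1.00 with free RNA taken away, and mt-Nd6 fell from 68.6 to 34.1 CPM (97 and 65 UMIs), a ratio of 0.497 (0.357 to 0.687). The highest member was Ndufs8, an iron-sulfur subunit of complex I, with 42.4 and 59.8 CPM (1.41). In ON cone bipolar-like cells, 2 of 77 subunits were past the fold, against 6.72% of genes: Atp5mpl rose from 609 to 1063 CPM (1.74, 1.64 to 1.86) and Cox6a1 from 93.6 to 141 CPM (1.503, 1.27 to 1.79). Other bipolar-like cells had 0 of 78 past the fold, against 5.17% of genes, with Atp5mpl highest at 426 and 601 CPM (1.41). The interval of Atp5mpl lay above 1 in 8 of the 12 classes, all 3 bipolar ones among them.

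Amacrine-like cells had at most 1 subunit past the fold in each class. GABAergic amacrine-like cells had 0 of 78 subunits past the fold against 4.82% of genes, and the glycinergic ones 0 of 77 against 7.02%. In both, mt-Nd4l was the lowest member, at 206 and 146 CPM (0.710) and 320 and 223 CPM (0.697), and the assembly factor Ndufaf8 the highest, at 27.1 and 39.1 CPM (1.44) and 33.0 and 42.1 CPM (1.28). In other amacrine-like cells, which were deeper in the knockout library (medians of 3748 and 6293 UMIs), 1 of 76 was past the fold against 11.3% of genes: Cox6a1 rose from 104 to 167 CPM (1.60, 1.28 to 2.02).

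Outside the neural retina the sums took different directions. Endothelial-like cells had a nuclear ratio of 0.920 (0.905 to 0.935), a mitochondrial ratio of 1.05 (1.03 to 1.06), and 1 of 79 subunits past the fold against 8.16% of genes: Sdha fell from 98.4 to 64.4 CPM (0.655, 0.520 to 0.822), while Sdhc of the same complex had 55.5 and 71.4 CPM (1.29). Also mt-Atp8 fell there, from 62.1 to 41.4 CPM (0.666). The mitochondrial ratio was 1.68 with free RNA taken away, 0.740 as a mean over cells and 0.805 with cells thinned to 1000 UMIs, so its direction depended on these choices. Neutrophil markers (9 and 8 of 10 detected) summed to 2236 CPM in control and 65.3 CPM in knockout endothelial-like cells, and their part was not tested.

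Monocyte and macrophage-like cells had a nuclear ratio of 1.09 (1.07 to 1.11) and a mitochondrial ratio of 1.22 (1.21 to 1.24), with 1 of 77 subunits past the fold against 9.69% of genes. That subunit, Ndufa9 of complex I, rose from 36.3 to 58.0 CPM (1.60, 1.14 to 2.23), and Sdhd was lowest with 87.0 and 63.2 CPM (0.726). Müller markers (12 and 10 of 12) summed to 4318 and 1545 CPM in these cells and neutrophil markers (10 of 10) to 2029 and 5768 CPM, which was not tested further. Neutrophil-like cells had a nuclear ratio of 0.950 (0.922 to 0.979), a mitochondrial ratio of 1.12 (1.10 to 1.14), and 1 of 51 subunits past the fold against 19% of genes: Uqcr10, a small subunit of complex III, fell from 69.4 to 44.4 CPM (0.641, 0.462 to 0.880). Their highest member was Ndufa6, with 42.5 and 55.9 CPM (1.32). With TMM scaling the nuclear ratio of neutrophil-like cells was 1.12. With free RNA taken away the mitochondrial ratio was 3.86 in neutrophil-like and 1.85 in monocyte and macrophage-like cells. The profile taken away, that of barcodes under 500 genes, held 185022 CPM of mitochondrially encoded subunits in control and 52400 CPM in knockout. These ratios carry that difference, and whether such barcodes hold free RNA was not tested.

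The wider pathway in Müller glia-like cells was read from lists of genes named for their function. Of 43 assembly factors of the 5 complexes with enough UMIs, 0 were higher and 5 lower: Ndufaf5, Timmdc1 (0.644), Nubpl (0.531) and Bcs1l (0.643), which help to build complexes I and III, and Lrpprc (0.605), which stabilises mitochondrial messages. Of 78 mitochondrial ribosome proteins 1 was higher, Mrps6, with 145 and 222 CPM (1.53), and of 23 import genes and 14 carriers and exchange proteins 0 passed. Of 15 genes of biogenesis and mitochondrial DNA upkeep 1 fell, Ppargc1a, a coactivator of mitochondrial genes, from 18.1 to 7.34 CPM (0.406). Of 17 genes of the tricarboxylic acid cycle 1 fell, Suclg2 (0.647). Glycolysis had 2 higher, the lactate exporter Slc16a3 (1.81) and Pfkfb3 (1.62), and 2 lower, Aldoc (0.533) and Pfkm (0.630), of 22. None of these lists had a larger share of lower genes than the 16.7% over all genes, and glycolysis had a larger share of higher ones than the 3.75%.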

How the data were processed

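Single-cell 3' RNA libraries of LPS-injected mouse retinas, 1 control and 1 knockout, were analysed from raw counts (UMIs of each gene in each barcode), deposited by the authors as matrices made with Cell Ranger 6.0.0 on mm10, per the submitters' processing notes, which also name Seurat 5.2.1. No annotation release is named in the sources used here. Of 32285 features, 40 repeated a symbol, and the first of each was used. The members and all lists were chosen with earlier results of these data known.

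Cells with at least 500 genes and under 25% mitochondrial UMIs were kept (8274 of 8690 control and 4662 of 5229 knockout barcodes), and clustered in R 4.3.3 with Seurat 5.3.0 (2000 variable genes, 11 principal components, resolution 1.0, seed 1). Non-neuronal clusters were clustered again, and Müller glia-like cells once more at resolution 0.4. Clusters were named from marker lists, with thresholds set after the data were seen: at least 3 markers detected and a mean log2 fold of at least 1 over the median cluster, and for Müller glia at least 5 CPM of Kcnj10. Differences from the study's own classes may come from these rebuilt names. When cells were named singly by their own markers, 12.0% of other bipolar-like, 16.7% of other amacrine-like and 29.0% of ON cone bipolar-like cells kept their name. Among the rest of the 12 classes this share ran from 70.6% (GABAergic amacrine-like) to 99.7% (rod bipolar-like). Scrublet, as run in scanpy 1.11.5, called 0 cells in both libraries, so this caller has not worked, and no cell was removed.

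UMIs were summed per class and library and given as CPM with exact Poisson 95% intervals. Ratios have exact conditional binomial and shares exact binomial (Clopper-Pearson) 95% intervals, and a count of 0 allows up to 3 counts. Only counting error is covered. As each group has 1 library, no test was made and no difference has a replicate check. Scripts were tested on simulated data. Named were all mitochondrially encoded members, fixed isoform families, the extreme ratios and 2 highest levels per complex in Müller glia-like cells, the extreme ratios of every other class, the 10 widest and 5 narrowest members across classes, and the members of pathway lists past 1.5-fold. Members outside this rule (Cox7a2l, the 12 rod subunits below 1.5-fold and the 5 with printed promoters) were named after their values were seen. Gene positions are from GENCODE on mm10, and promoters from RefSeq on GRCm38.p6. Software was pandas 2.3.3, numpy 2.4.6 and scipy 1.17.1 under Python 3.11.15, with edgeR 4.0.16 for TMM scaling. Alternatives changed the cell filters, scaling, depth, clustering, naming, doublets and free RNA. For free RNA the summed profile of each library's barcodes under 500 genes stood in, and whether these barcodes hold free RNA was not tested. A further list of pathway genes is not reported here.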

Additional observations from a re-analysis of the deposited data

Results flagged for a closer look

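In 4 cases a class went against most others in the direction of its summed ratio. The nuclear-encoded subunits had a knockout over control ratio below 1 in endothelial-like cells, at 0.920 (0.905 to 0.935), and in neutrophil-like cells, at 0.950 (0.922 to 0.979), while the intervals of the other 10 classes lay above 1. The mitochondrially encoded subunits had a ratio below 1 in other bipolar-like cells, at 0.970 (0.963 to 0.977), and in rod bipolar-like cells, at 0.939 (0.931 to 0.946), again with the intervals of the other 10 above 1. Uqcr10, a small subunit of complex III, was the only member past 1.5-fold in both directions over classes, with a ratio of 0.641 in neutrophil-like and 2.02 in rod-like cells. Some of these directions turned with the processing: the nuclear ratio of neutrophil-like cells was 1.12 with TMM scaling, and the mitochondrial ratio of other bipolar-like cells was 1.03 with cells named singly and 1.09 with free RNA taken away, which also brought that of rod bipolar-like cells to 1.00. The nuclear ratio of endothelial-like cells stayed below 1 in all 11 alternatives run for it, at most 0.975. With 1 library per group, none of these differences between classes was tested.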

How the results depend on the processing

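No paired analysis was possible because each group has 1 library and the labels give no shared replicate numbers, and for the same reason no library could be left out. In Müller glia-like cells the nuclear ratio (1.07) was 1.18 as a mean over cells, 1.19 with cells thinned to 1000 UMIs, 1.03 with cells named singly, 1.07 with free RNA taken away, 1.23 with TMM scaling, and 1.10, 0.960, 0.907, 0.937 and 1.11 in the 5 subclusters. The mitochondrial ratio (1.01) was 1.02 under a 10% mitochondrial limit, 1.00 without the limit, 0.909 as a mean over cells, 0.907 with thinned cells, 0.826 with cells named singly, 1.00 without high doublet scores, 1.31 with free RNA taken away, 1.02 without the 5 deepest cells, 1.16 with TMM scaling, and 1.19, 0.967, 0.873, 0.745 and 1.06 in the subclusters. Members past 1.5-fold (2) numbered 4 as a mean over cells, 6 with thinned cells, 21 in the third subcluster (15 knockout cells), and 1 with cells named singly, with free RNA taken away, without the 5 deepest cells, with TMM scaling, in the second subcluster and at a minimum of 300 UMIs. The nuclear fold between classes (4.50) was 3.98 as a mean over cells, 4.78 without mitochondrial UMIs in the total, 4.17 with thinned cells, 3.81 with cells named singly and 4.75 with free RNA taken away. The mitochondrial fold (5.61) was 5.20 under the 10% limit, 6.10 without the limit, 5.49 as a mean over cells, 5.96 without mitochondrial UMIs in the total, 4.86 with cells named singly and 9.71 with free RNA taken away. Alternatives chosen after seeing the data gave, with an unnamed cluster near the Müller glia added, 1.04, 0.823 and 1 member, in cells of 1000 to 2000 UMIs (39 control and 31 knockout) 1.48, 0.488 and 7 members of 9, and without neutrophil-like cells class folds of 2.00 and 3.55. The rod ratios stayed above 1 in all 13 alternatives run for them, from 1.59 to 2.03 (nuclear) and from 1.51 to 2.14 (mitochondrial). The depth band was not read for the other classes, of which some had at most 3 cells in a library there. The cause of these shifts was not tested. The direction of the Müller ratios therefore depends on these choices. Depth limits the low members: in neutrophil-like cells 51 of 84 nuclear-encoded subunits reached 100 UMIs, and free RNA was not removed.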

Other observations

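In rod-like cells other mitochondrial lists also had more members past 1.5-fold upward than downward, among genes with at least 100 UMIs: 26 higher and 2 lower of 67 mitochondrial ribosome proteins, 8 and 0 of 19 import genes, 12 and 2 of 31 assembly factors, and 6 and 0 of 14 carriers and exchange proteins. Glycolysis had 10 higher and 0 lower of 19, the tricarboxylic acid cycle 3 and 1 of 14, and biogenesis and mitochondrial DNA upkeep 0 and 2 of 12. Over all 7357 genes tested in the class 30% were past the fold in either direction, 824 higher and 1381 lower. Among those with a span under 10 kb, 39.1% were higher, and the part of span in these lists was not tested. Barcodes with under 500 genes, which were left out of the classes, numbered 333 (control) and 469 (knockout). Their mitochondrially encoded subunits summed to 185022 and 52400 CPM and their nuclear-encoded subunits to 10234 and 4563 CPM, so the libraries differed more there than in the 12 classes.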
